A study of Mus musculus with 24 samples.

Results

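Gene expression in the mouse digit tip was compared between 14 and 12 days after a proximal amputation. The comparison used 8 of the 24 libraries of the series, 4 collected at each day and chosen by their amputation level and day alone, and all 15055 genes of the table entered it. The tissue was the hind limb digit tip of C57BL/6 mice aged 10 to 12 weeks, taken with its bone, cartilage, marrow, dermis and epidermis. The remaining 16 libraries were 4 from proximal digits at 21 days and 4 from each of 12, 14 and 21 days after a distal amputation. No uninjured digit was part of the comparison, and all groups shared strain, age range and tissue. The exact plane of each cut, and whether a library held 1 digit or a pool, were not given in the sources used here. The labels do not say whether the 4 libraries of a group represent different mice. The p-values therefore refer to the spread between libraries alone, which may be technical.

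The last bone of a mouse digit, the terminal phalanx, is wrapped by the nail organ, whose matrix epithelium makes the hard keratins and keratin-associated proteins of the nail plate. A cut near the tip is followed by regrowth of bone and nail, through osteoclast resorption, a blastema of proliferating connective tissue cells and direct bone formation, whereas a more proximal cut is known to end in wound closure and scar. Wnt signalling in nail epithelium and BMP signalling in the stump are known regulators of that regrowth. In whole-tissue RNA, fewer cells of a type and less RNA per cell cannot be told apart.

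Deposited values summed to between 15322064 and 18145281 per library, and their upper quartiles lay between 902.5 and 925.5 in the 8 libraries. Because the quartiles were nearly equal, the values were treated as normalised. The sequencing depth is unknown, and no counting interval is given. On the first principal component, which held 45.4% of the variance of the 8 libraries, the 12-day and 14-day libraries lay on opposite sides, and replicate 1 of 12 days stood nearest to the other day. That library was high in osteoclast genes as well, with Mmp9, the gelatinase of resorbing cells, at 22667 against 1274 to 4023 in the other 12-day libraries. The second component, with 18.7%, set replicate 3 of both days apart. In these libraries 10 genes of the secretory coil of sweat glands, a list chosen after their values were seen, summed to 12605 and 16827 against 2866 to 4258 in the other 6.

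Between 12 and 14 days 2288 genes changed, which is 15.2% of those tested, with 1107 higher (7.35%) and 1181 lower (7.84%) at 14 days. A gene was called when limma's Benjamini-Hochberg adjusted p over all 15055 genes was under 0.05, and every log2 change is on the scale of log2(value + 1). Of the called genes, 262 rose and 156 fell by more than 2-fold. The median log2 change of all genes was -0.01. When every library was instead scaled to the same table total, that median became -0.10 and the calls were 613 higher and 1586 lower, so 27.9% in place of 48.4% of calls were upward. Leaving out both replicate 3 libraries gave 1287 calls. The values of the 4 and 4 libraries did not overlap for 2725 genes (18.1% of all), higher at 14 days for 1265 (8.4%) and lower for 1460 (9.7%).

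**Figure D1:**
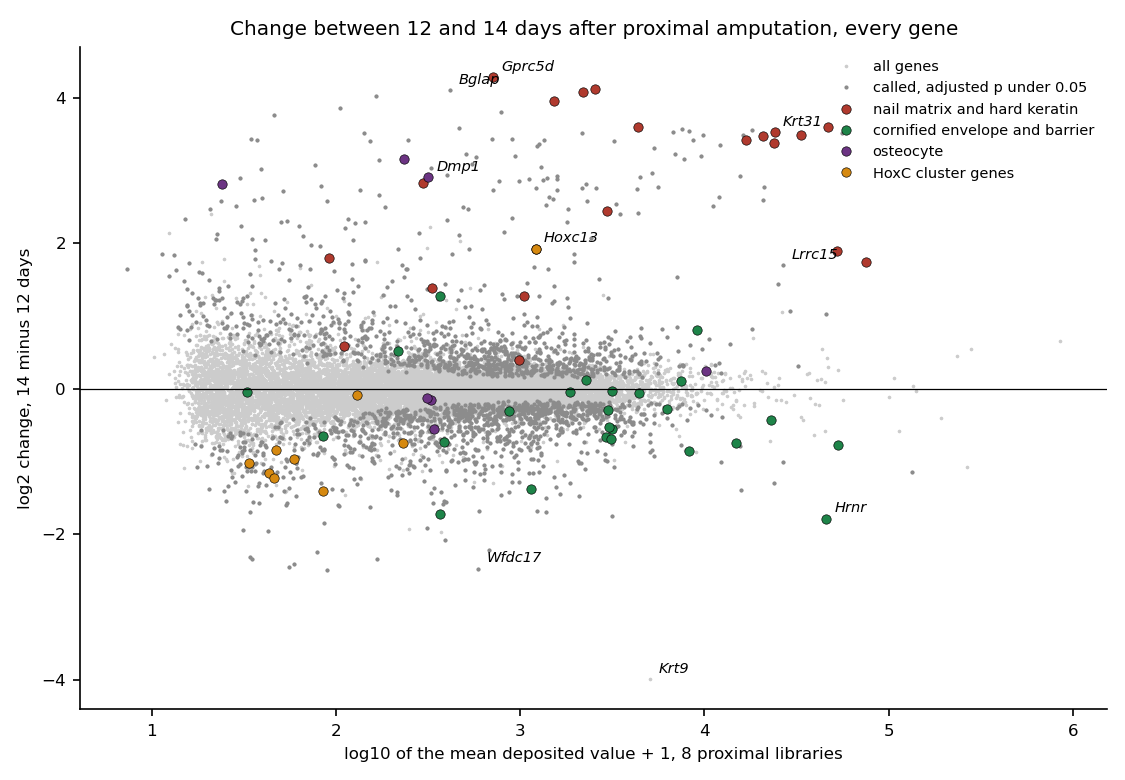
Log2 change between 12 and 14 days after proximal amputation (vertical) against the mean deposited value of the 8 libraries (horizontal, log10). Each point is a gene, darker grey when called, and colours mark members of 4 gene lists, and many nail genes lie above 3 at high mean values, while Hrnr lies low and Krt9, which was not called, is the lowest point.

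Of the 41 lists, that of nail genes had the largest median change. On a list of genes of the nail matrix and its hard keratins, 19 of 21 measured members were higher at 14 days and none was lower, and the median log2 change was 3.38 against -0.01 for all genes. For 15 of them the values of the 2 days did not overlap. Of all genes 7.35% were called higher, and 8.4% had higher values at 14 days without overlap. Summed over the list, the deposited values were 134496, 43418, 47164 and 144967 in the 12-day libraries and 874162, 299503, 351832 and 594486 in the 14-day libraries. Every 14-day library was above every 12-day library, and replicates 1 and 4 were the high ones on both days. Without replicate 1 of 12 days, 18 members were called with a median of 3.95, and without both replicate 3 libraries 18 were called with a median of 3.23.

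Among the hard keratins of type I, Krt31 (chr11:100046646-100050551, minus strand, mm10) stood at 9406, 2289, 1966 and 3911 at 12 days and at 59280, 30250, 29341 and 55416 at 14 days. Every 14-day library was far above the highest of 12 days, and the log2 change was 3.53 ± 0.41 (SE) with an adjusted p of 1.61e-05. Krt33b, from the same stretch of chromosome 11, went from 18556, 3106, 2990 and 9341 to 129595, 52668, 47418 and 109290 (log2 change 3.61 ± 0.49, adjusted p 5.47e-05). Krt34 went from 11733, 1569, 1690 and 5200 to 66408, 21550, 22013 and 60657, a log2 change of 3.38. In all of these genes replicate 1 was the highest of 12 days without reaching any 14-day library. Krt35, an early keratin of the nail and hair matrix, was at 945, 203, 310 and 52 and then at 1720, 6439, 6676 and 4001, and here replicate 1 was the lowest at 14 days. Krt36 rose less, by a log2 of 1.89 ± 0.44. Type I and type II hard keratins are close paralogues, and how reads shared between copies were counted is unknown here, which leaves single members uncertain where copies are near identical.

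These keratins sit in 1 stretch of chromosome 11, and the 300 bases around the start of 3 neighbours are printed because the 3 genes moved together. The sequences are RefSeq promoters on GRCm38.p6, from 250 bases before to 50 bases after the start, read 5′ to 3′ on the gene's strand. Capitals mark TATAAA on the sense strand, CTTTGAA or CTTTGAT on either strand (the core bound by LEF1 and TCF factors) and TTTTATG on the sense strand, a string noticed in these sequences after they were read. The regions are chr11:100050502-100050801 for Krt31, chr11:100029819-100030118 for Krt33b and chr11:100041505-100041804 for Krt34, all on the minus strand.
Krt31: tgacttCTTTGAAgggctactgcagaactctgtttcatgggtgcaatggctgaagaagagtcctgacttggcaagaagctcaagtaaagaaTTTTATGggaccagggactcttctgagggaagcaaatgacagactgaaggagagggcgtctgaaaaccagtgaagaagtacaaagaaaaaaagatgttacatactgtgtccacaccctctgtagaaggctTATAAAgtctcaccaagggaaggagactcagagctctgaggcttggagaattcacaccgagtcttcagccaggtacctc
Krt33b: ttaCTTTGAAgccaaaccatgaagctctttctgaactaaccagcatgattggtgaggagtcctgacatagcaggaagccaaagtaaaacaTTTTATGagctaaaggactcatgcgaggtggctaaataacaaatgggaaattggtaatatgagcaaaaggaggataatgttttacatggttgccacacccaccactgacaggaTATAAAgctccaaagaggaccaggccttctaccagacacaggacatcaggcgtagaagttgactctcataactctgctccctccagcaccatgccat
Krt34: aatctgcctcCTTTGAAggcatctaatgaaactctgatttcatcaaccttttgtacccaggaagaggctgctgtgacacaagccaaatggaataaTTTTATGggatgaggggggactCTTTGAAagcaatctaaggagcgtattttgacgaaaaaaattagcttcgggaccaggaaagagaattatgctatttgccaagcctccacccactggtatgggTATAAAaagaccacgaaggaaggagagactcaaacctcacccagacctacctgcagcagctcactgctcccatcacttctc
All 3 promoters held a CTTTGAA or CTTTGAT match far upstream, TTTTATG at -159, -160 and -155 from the start, and TATAAA close to it, and no match overlapped another. The first bases of that match lay at -244, -247 and -240, with a further copy at -133 in Krt34, and those of TATAAA at -29, -47 and -31. Of 27025 promoters of the same length, 8.77% held CTTTGAA or CTTTGAT, 8.88% TATAAA and 1.94% TTTTATG. On the nail list 12 genes had a promoter sequence, and each of the 3 motifs was found in 5 of them, counting these 3. TGANTCA, the AP-1 motif, and AACCACA, the RUNX motif, were also searched on both strands. None of the 12 held them, against 7.93% and 5.37% of all promoters, and 12 sequences are too few to read an absence from. A match is a description of the letters and not evidence of binding.

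Type II hard keratins, their partners in the filament, moved by similar amounts. Krt83 was at 8722, 1491, 1681 and 4457 and then at 44396, 23194, 26002 and 56465, with no overlap and a log2 change of 3.48 ± 0.47. Krt81 and Krt86 rose by log2 values of 3.49 and 3.42. Krt84, a keratin of the nail bed side of the matrix, stood at 29390, 15745, 18260 and 67441 and then at 274410, 50516, 77989 and 66882. Its groups overlapped, replicate 1 of 14 days lay far above the rest, and the log2 change was 1.75 with an adjusted p of 0.035.

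Regulators of nail and hair differentiation rose with them. Hoxc13 (chr15:102921103-102928814, plus strand), the homeobox factor required for hair and nail keratin expression, was at 731, 496, 359 and 469 and then at 2138, 1574, 1986 and 1932. The 14-day values lay close together and far above those of 12 days, with a log2 change of 1.93 ± 0.22 and an adjusted p of 1.61e-05. Foxn1, a forkhead factor of nail and hair epithelium, rose by a log2 of 1.27, from 880, 788, 400 and 448 to 1259, 1333, 1297 and 1941. Msx2, a BMP-responsive homeobox gene of nail matrix and distal mesenchyme, went from 261, 173, 148 and 136 to 314, 476, 382 and 748 (log2 change 1.38 ± 0.27). Gprc5d, an orphan receptor of hard-keratin cells, had the largest rise of any gene named by the rule on size, from 225, 49, 24 and 24 to 381, 917, 940 and 3098, a log2 change of 4.29 ± 0.64. Dlx3 and Tchh, the homeobox factor and the trichohyalin of hair follicles, did not pass the test, with log2 changes of 0.39 and 0.58.

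**Figure D2:**
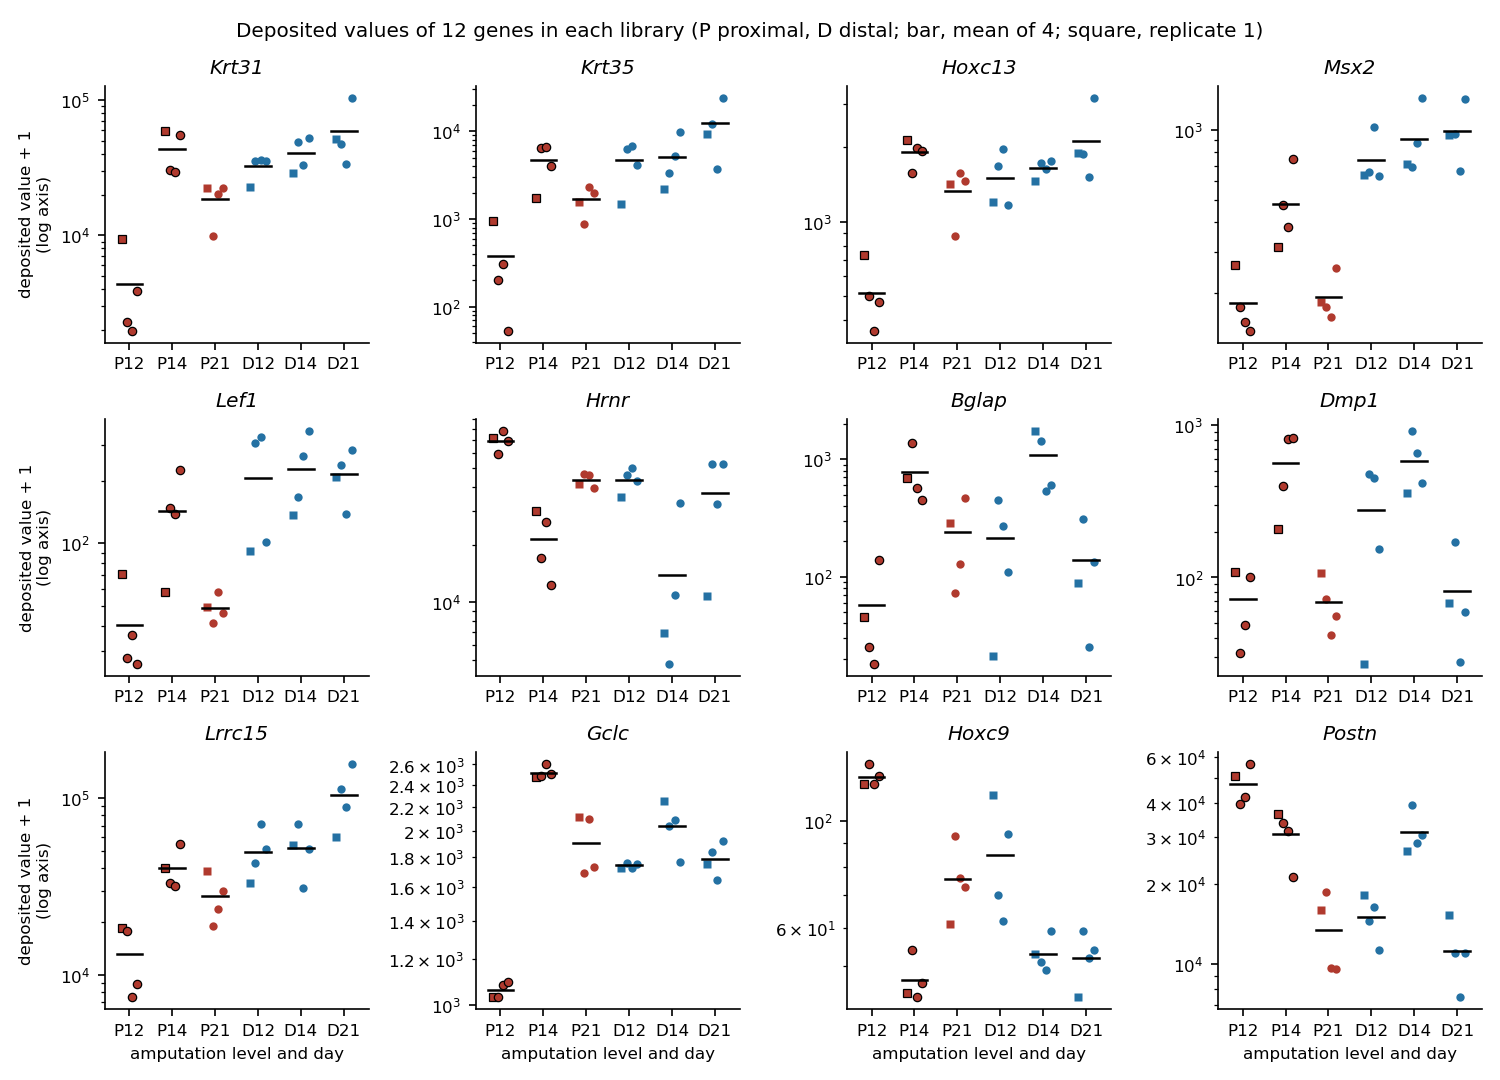
Deposited value + 1 (log axis) of 12 genes in each of the 24 libraries, by amputation level (P proximal, D distal) and day. Points are libraries, squares are replicate 1 and bars are group means, and Krt31, Krt35, Hoxc13 and Gclc show separate 12-day and 14-day proximal groups, with Krt31 in distal libraries above all 12-day proximal values.

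Keratin-associated proteins, which crosslink hard keratin filaments, were examined as a family of 38 measured genes chosen after their values were seen. Of these, 37 were called higher, where 7.35% of all genes were, and none lower, and the median log2 change was 3.01. The family summed to 74902, 17514, 14996 and 24034 at 12 days and to 267488, 155579, 257103 and 364150 at 14 days. Krtap21-1, a glycine and tyrosine rich member, was at 6354, 1617, 2018 and 2230 and then at 27582, 16981, 49239 and 38409, a log2 change of 3.56 ± 0.53. Krtap17-1, Krtap1-3, Krtap19-9b and Krtap22-2 rose by 3.81, 3.60, 3.59 and 3.57 on the log2 scale. Krtap19-5 was the exception, at 178, 17, 58 and 120 and then 167, 201, 284 and 298, with an adjusted p of 0.124. In this family also replicate 1 was the highest 12-day library for each member given here by library. A TATAAA string was present in 31 of the 34 family promoters that had a sequence, against 8.88% of all promoters. The other motifs searched were found there too. CTTTGAA or CTTTGAT was in 10 of the 34, AACCACA in 7, TGANTCA in 6 and TTTTATG in 5. Of all promoters 8.77%, 5.37%, 7.93% and 1.94% held them. Transcripts of this family are short and near-identical copies are common, so values of single members are uncertain.

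Among the 12 largest rises were also a pair of uncharacterised transcripts within the keratin cluster of chromosome 11. Gm12347, annotated as a long intergenic RNA (chr11:100105771-100112106), went from 63, 18, 16 and 4 to 177, 392, 317 and 331, a log2 change of 4.03 ± 0.54. Gm11571, annotated as antisense (chr11:100052286-100085983), went from 62, 5, 7 and 7 to 266, 163, 113 and 212 (log2 change 3.86). The notes on counting do not mention strand, and reads of Gm11571 and of genes on the opposite strand cannot be told apart.

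Over the same days in distal digits no member of the nail list was called, and the median log2 change was 0.30. The test of the difference between levels called 14 of the 21 members, all with the larger rise proximally, against 5.08% of all genes in that direction. For Krt31 the difference was 3.22 ± 0.58 with an adjusted p of 0.0013, and for Hoxc13 it was 1.76 ± 0.32 with an adjusted p of 0.0013. Krt31 in the distal libraries lay between 22674 and 35765 at 12 days and between 28688 and 52067 at 14 days. Of the 14-day proximal values of Krt31, 2 lay within that distal range and 2 above it, and all 12-day proximal values lay below it. From 14 to 21 days, a comparison that shares the 14-day libraries, the median of the list was -0.87 and Krt31 stood at 9866 to 22306.

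Outside the nail, several genes of differentiated epidermis fell. The list of cornified envelope and barrier genes had 4 of 25 members lower at 14 days and none higher, where 7.84% of all genes fell, and a median log2 change of -0.43. Under table totals 7 members were lower. Its summed value was 219036, 259675, 214009 and 299052 at 12 days and 193850, 122906, 146933 and 126649 at 14 days, so that the groups did not overlap. Hrnr (chr3:93319749-93333570), a large filaggrin-like protein of the granular layer, was at 72272, 59291, 78449 and 69230 and then at 30054, 17014, 26310 and 12352. All 4 later values were under the lowest earlier one, the log2 change was -1.78 ± 0.46 and the adjusted p 0.0115. Klk5, a protease of desquamation, fell by 1.38, and Spink5, its inhibitor, and Cdsn, a corneodesmosome protein, fell by 0.86 and 0.74 on the log2 scale. The calls of Spink5 and Cdsn ended when single libraries were left out, for 2 and 5 of the 8 libraries, with adjusted p up to 0.0884 and 0.109.

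Of 17 basal and suprabasal epidermal genes 3 fell and 1 rose, where 7.84% and 7.35% of all genes did, with a median of 0.05. Krt10, the type I keratin of suprabasal cells, stood at 157306, 157996, 164215 and 252090 and then at 132704, 59237, 70955 and 77607, a log2 change of -1.14 ± 0.34. The groups did not overlap, yet its call ended when any of 4 libraries was left out, replicate 4 of 12 days and replicates 2, 3 and 4 of 14 days, with adjusted p up to 0.09, and without both replicate 3 libraries the adjusted p was 0.1. Dsg1a, a desmosomal cadherin of the upper layers, fell by 0.78, and Grhl3, a barrier transcription factor, by 0.59, whose call was lost for 6 of the 8 libraries left out, with adjusted p up to 0.154. Sfn, the 14-3-3 protein of stratified epithelium, rose by 0.69 ± 0.15, from 6933, 7744, 8660 and 8643 to 14832, 8838, 16689 and 12366. The basal keratins gave no call, Krt14 with a log2 change of 0.15 and Krt5 with 0.21. In distal digits 9 genes of this list fell and none rose, where 8.12% of all genes fell, with a median of -0.47. The test between levels called 2 members, both higher proximally, against 5.08% of all genes.

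Of 15 genes of activated, wound-edge epidermis 3 rose and 1 fell, where 7.35% and 7.84% of all genes did, and the median was 0.70; without both replicate 3 libraries 1 rose and none fell. Krt6a, a keratin induced in wounded skin and present in nail bed, was at 27234, 29632, 23479 and 40136 and then at 65818, 48918, 59012 and 69028, with no overlap and a log2 change of 1.03 ± 0.26. Without both replicate 3 libraries the change of Krt6a was 0.93 with an adjusted p of 0.0708. Krt16, its partner, had a log2 change of 1.07 with overlapping groups, and lost its call for 6 of the 8 libraries left out, with adjusted p up to 0.142, under table totals with 0.0525, with the replicate number as a block with 0.0637, and under 3 further alternatives. The other keratins of the list, Krt6b, Krt17, Krt8 and Krt18, were not called, with log2 changes of 0.70, 1.06, 0.89 and 0.0012. Fosl1, an AP-1 subunit of migrating keratinocytes, rose by 1.23 from 35, 48, 40 and 45 to 113, 64, 95 and 142. Il1rn, the interleukin-1 receptor antagonist, fell by 0.60, and its call ended for 4 libraries left out, with adjusted p up to 0.0823. The antimicrobial alarmin S100a8 was at 152, 114, 47 and 212 and then 476, 577, 198 and 701, which overlap, with an adjusted p of 0.184.

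**Figure D3:**
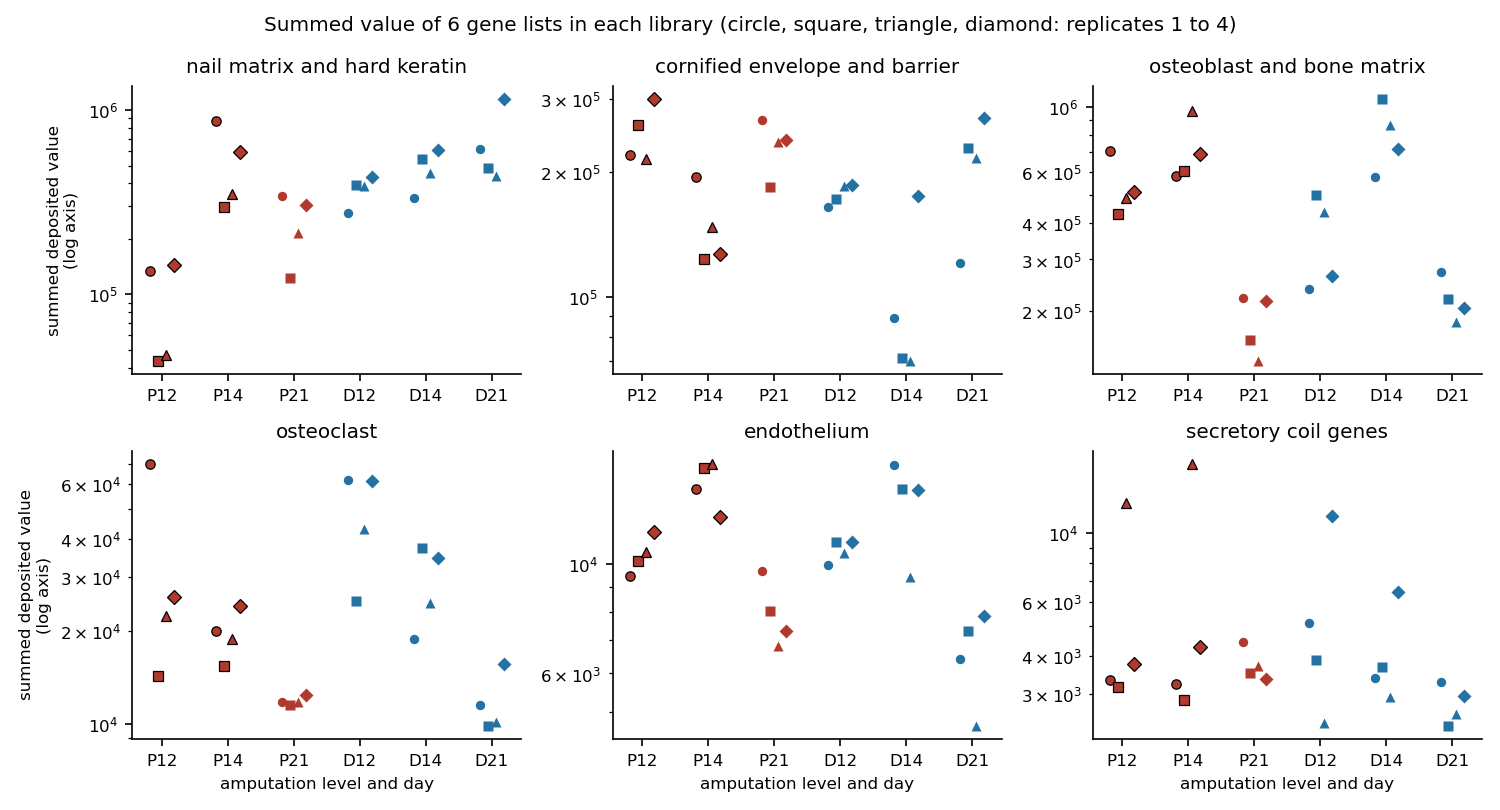
Summed deposited value (log axis) of 6 gene lists in each of the 24 libraries, by amputation level and day, with a marker for each replicate number. The nail sum is higher in every 14-day than in every 12-day proximal library, the cornified sum is lower, replicate 1 of 12 days stands highest for osteoclast genes, and replicate 3 of both days stands highest for secretory coil genes.

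Of 18 osteoblast and bone matrix genes 2 rose, both of them osteocalcin genes, and the median was 0.40. That share of 11.1% lies near the 7.35% of all genes that rose. Bglap (chr3:88383501-88384464), which encodes osteocalcin, was at 44, 24, 17 and 139 and then at 694, 1384, 567 and 450, and the groups did not overlap. Its log2 change was 4.10 ± 0.85 with an adjusted p of 0.00232. Bglap2, an osteocalcin copy with nearly the same sequence, was at 3, 3, 3 and 20 and then at 55, 89, 70 and 48, and reads could be split between the copies. Col1a1, the main bone collagen chain, had a log2 change of 0.55 with an adjusted p of 0.229, from 311130, 188661, 195026 and 211320 to 271499, 278425, 446558 and 327876. Sp7 and Runx2, the transcription factors of osteoblast commitment, had log2 changes of 0.39 and 0.13, and in both replicate 1 was the highest of 12 days.

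Osteocyte genes gave 3 calls among 7 measured, all higher, where 7.35% of all genes rose, and 2 without both replicate 3 libraries. The list as a whole moved less, with a median log2 change of 0.24. Of its members 4 had a positive and 3 a negative change, the lowest that of Irx5 at -0.55. Phex, the endopeptidase that limits mineral inhibitors, was at 39, 33, 38 and 81 and then at 276, 482, 485 and 432, a log2 change of 3.17 ± 0.55 with an adjusted p of 0.000578. Dmp1, a matrix protein of early osteocytes, was at 108, 31, 48 and 100 and then at 207, 399, 810 and 815, a change of 2.91 ± 0.71. Sost, the sclerostin of mature osteocytes, was low throughout, at 4, 3, 3 and 8 and then at 21, 86, 33 and 26. No 12-day value of these genes reached a 14-day value. The call of Dmp1 ended without both replicate 3 libraries, with a log2 change of 2.53 and an adjusted p of 0.067. In distal digits Bglap and Phex rose as well, by 2.87 and 1.75, and neither differed between levels by the test of the difference, with adjusted p of 0.563 and 0.265.

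Osteoclast genes had a median log2 change of -0.50 over 16 members, with 1 called higher and 2 lower, against 7.35% and 7.84% of all genes. The median was -0.06 without replicate 1 of 12 days, the library that held 69908 of summed value against 14265 to 25740 in the other 3. Ctsk, the collagenase of osteoclasts, was at 25639, 4688, 8225 and 10578 and then at 5306, 4268, 6392 and 6567, with an adjusted p of 0.2. Acp5, their tartrate-resistant phosphatase, had a log2 change of -0.73 with an adjusted p of 0.338, and -0.15 at the smallest when a library was left out. Car2, the carbonic anhydrase that also serves other cells, rose by 1.23 ± 0.29 from 563, 450, 581 and 374 to 1113, 1157, 1008 and 1300. Ostm1, a chloride transporter subunit, fell by 0.35, and Tnfrsf11a, the receptor RANK, by 0.79, the call of which was lost for 6 of 8 libraries left out, with adjusted p up to 0.146.

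Cartilage, tendon and scar matrix genes gave few calls proximally, where 7.35% of all genes rose and 7.84% fell. Of 18 cartilage genes only Col11a2, a minor fibrillar collagen, was called, with a log2 change of 1.85 ± 0.58 from 1492, 510, 722 and 806 to 1965, 2988, 3642 and 3500, and no cartilage gene was called without both replicate 3 libraries. Acan, the aggrecan core protein, had a change of -0.51 with an adjusted p of 0.464. No tendon or ligament gene of 16 was called (median -0.23), and Tnmd, tenomodulin, had a log2 change of 0.21 that was -0.024 without replicate 4 of 12 days. Postn, the periostin of healing connective tissue, stood at 50889, 39720, 42370 and 56214 and then at 36584, 33761, 31590 and 21235, groups that did not overlap, with an adjusted p of 0.0691.

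Of 24 fibrosis and myofibroblast genes 2 rose and 2 fell (median -0.17), where 7.35% and 7.84% of all genes did. Without both replicate 3 libraries 1 rose and 1 fell. Lrrc15, a TGF-beta induced surface protein of scar fibroblasts and of bone-forming cells, rose from 18289, 17753, 7438 and 8835 to 40462, 33247, 32019 and 55289, a log2 change of 1.70 ± 0.34. Ctgf, a matricellular target of TGF-beta, rose by 0.72, a call that ended without both replicate 3 libraries (0.62, adjusted p 0.0859). Loxl1, a crosslinking enzyme of elastic fibres, fell by 0.53 from 2547, 2335, 2342 and 2782 to 1997, 1807, 1727 and 1421. Tgfb3, a ligand, fell by 0.45 with an adjusted p of 0.0493, and the call was lost for 6 of 8 libraries left out, with adjusted p up to 0.153. Among 16 dermal fibroblast genes 2 fell, where 7.84% of all genes did, or 1 without both replicate 3 libraries. Fbln2, a basement membrane fibulin, fell by 0.47 and Mfap5, a microfibril protein, by 0.69. Their calls were lost for 3 and 4 of 8 libraries left out, with adjusted p up to 0.102 and 0.0939.

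After distal amputation 21 of the 24 fibrosis genes rose and none fell (median 0.76), where 11.2% of all genes rose. The test of the difference between levels called 13 of them lower and 1 higher proximally, against 6.61% and 5.08% of all genes. For tendon genes it called 6 of 16 lower proximally and none higher, and for dermal fibroblast genes 6 of 16 and none. Postn rose distally by 1.06, and its difference between levels was -1.70 ± 0.33 with an adjusted p of 0.0022. The distal 12-day values of Postn lay between 11269 and 18102, under every proximal value of 12 and 14 days.

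**Figure D4:**
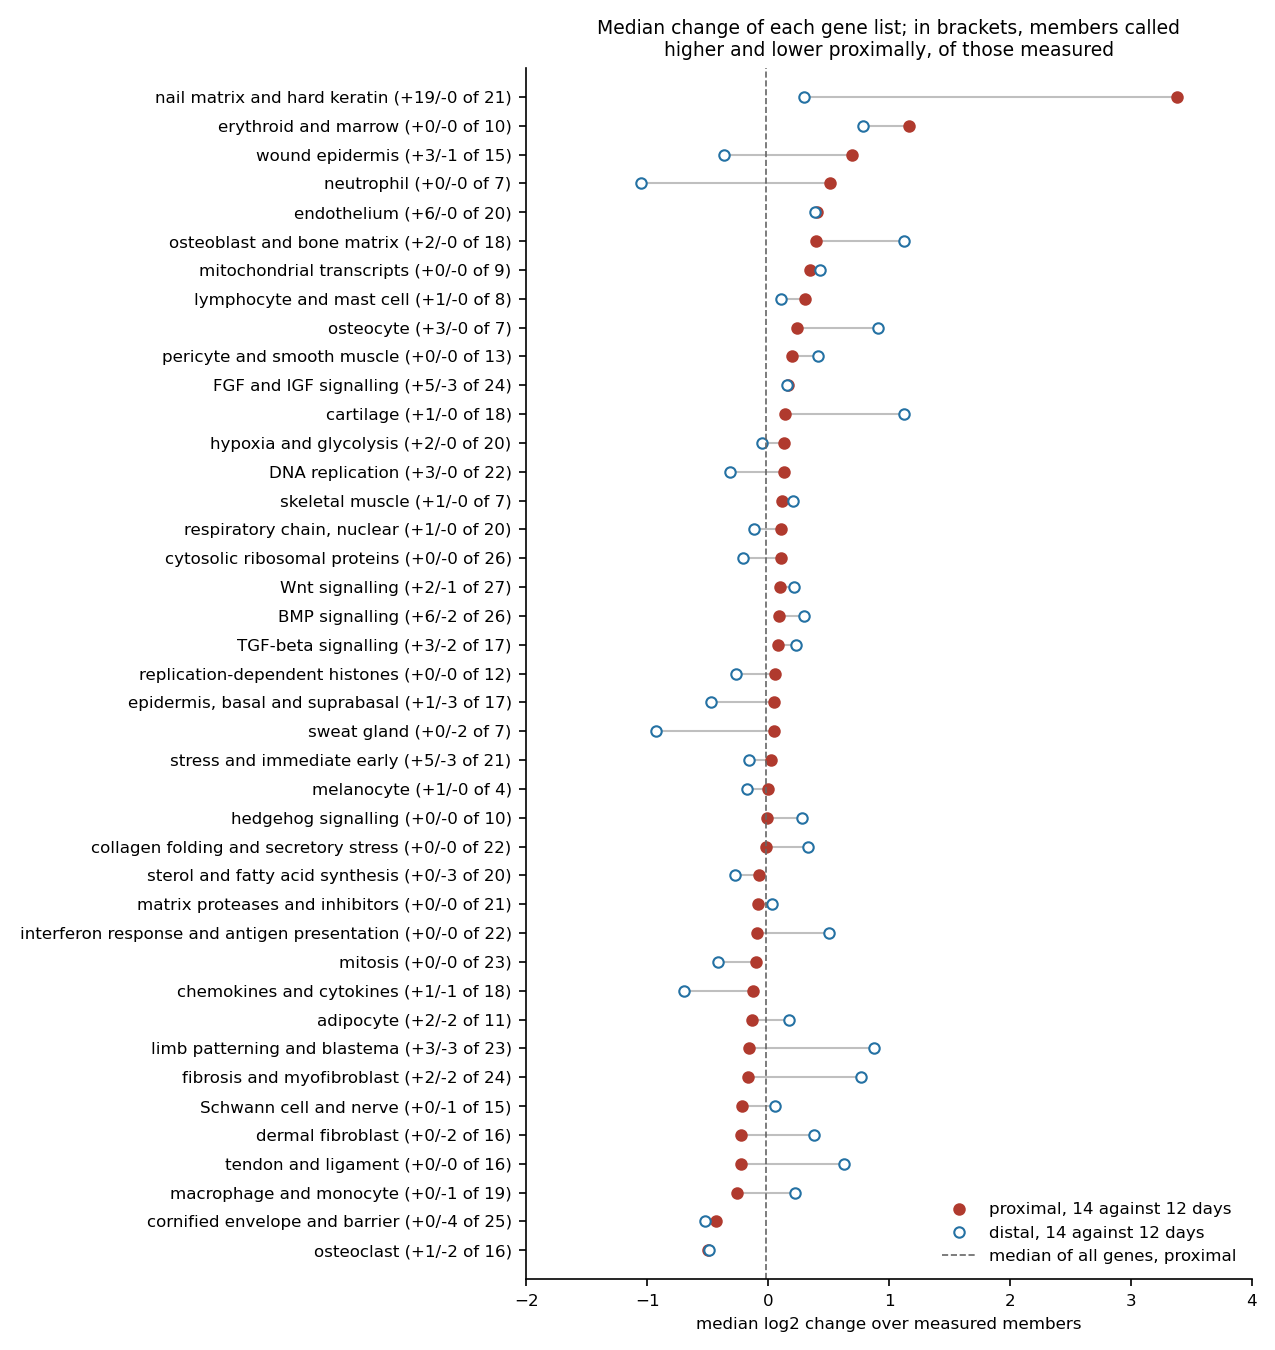
Median log2 change between 14 and 12 days of the measured members of each of 41 gene lists, after proximal (filled) and distal (open) amputation. Brackets give how many members were called higher and lower proximally of those measured, and the nail list stands at 3.38 proximally and 0.30 distally, while cartilage, limb patterning, fibrosis and tendon lists lie further to the right distally.

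Ligands of the Wnt pathway gave no call among the 27 pathway genes measured, of which 2 rose and 1 fell (median 0.10). Of all genes 7.35% rose and 7.84% fell, and under table totals 2 pathway genes rose and 4 fell. The nuclear effectors rose: Tcf7 was at 378, 323, 268 and 282 and then at 573, 662, 590 and 943, a log2 change of 1.13 ± 0.16 with an adjusted p of 0.0001. Lef1, also on the nail list, was at 70, 27, 35 and 25 and then at 57, 147, 138 and 225, and replicate 1 was the highest of 12 days and the lowest of 14 days. Its log2 change was 1.79 ± 0.44 with an adjusted p of 0.00757. Wls, which carries Wnt proteins to the cell surface, fell by 0.27, a call lost for 3 of 8 libraries left out, with adjusted p up to 0.0886. The change of Tcf7 differed between levels, by 1.09 with an adjusted p of 0.00445, and that of Lef1 did not pass, with 0.124.

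BMP pathway genes gave 6 rises and 2 falls among 26 (median 0.09), where 7.35% of all genes rose and 7.84% fell, and the rises included inhibitors and feedback genes. Under table totals 4 rose and 2 fell. Fst, the activin and BMP antagonist follistatin, was at 697, 706, 697 and 652 and then at 1537, 1272, 1464 and 1361, a log2 change of 1.03 ± 0.14 with an adjusted p of 4.36e-05. Bambi, a pseudoreceptor that BMP induces, went from 927, 792, 655 and 547 to 1479, 2309, 1362 and 1986 (log2 change 1.28 ± 0.18). The inhibitors Nog and Smad6 rose by 0.74 and 0.45 and the signal transducer Smad9 by 0.69; Smad6 lost its call under table totals, at 0.36 with an adjusted p of 0.0503. The ligand Bmp3, which antagonises osteogenic BMPs, rose by 1.40 from 128, 62, 81 and 148 to 229, 261, 192 and 415. The receptor Bmpr1a fell by 0.34 and Fstl1, a secreted follistatin-like glycoprotein, by 0.39. Fst differed between levels by 1.11 ± 0.19 with an adjusted p of 0.000915.

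Of 17 TGF-beta pathway genes 3 rose and 2 fell, where 7.35% and 7.84% of all genes did. Without both replicate 3 libraries 2 rose and none fell, and under table totals 1 rose and 4 fell. Inhbb, the activin B chain, rose by 0.71 from 1148, 1208, 1186 and 1388 to 2386, 2034, 1618 and 2088. The latency proteins Ltbp1 and Ltbp4 rose by 0.36 and 0.42 and the receptor Tgfbr2 fell by 0.27. Under table totals Ltbp1 and Ltbp4 were not called (adjusted p 0.0664 and 0.0894), and leaving out single libraries ended the calls of Ltbp4 and Tgfbr2 for 5 and 7 of 8, with adjusted p up to 0.123 and 0.122. No hedgehog pathway gene of 10 was called, with a median of -0.01.

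Of 24 FGF and IGF pathway genes 5 rose and 3 fell, where 7.35% and 7.84% of all genes did. Without both replicate 3 libraries 4 rose and 1 fell. Igf1r, the receptor of insulin-like growth factors, was tight within each day at 2208, 2178, 2111 and 2178 and then at 3038, 3080, 2897 and 3065, a log2 change of 0.48 ± 0.07 with an adjusted p of 0.000128. Igfbp5, an IGF-binding protein of bone, rose by 0.71 from 5227, 5259, 4498 and 3960 to 7955, 6298, 7054 and 9993. Dusp6, a phosphatase induced by FGF signalling, rose by 0.63 ± 0.14, the ligand Fgf10 rose by 1.11, and the receptor Fgfr3 fell by 0.57 ± 0.12.

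Of 23 limb patterning and blastema genes 3 rose and 3 fell, where 7.35% and 7.84% of all genes did, with a median of -0.16. Without both replicate 3 libraries 2 rose and none fell, and without replicate 1 of 12 days 3 rose and 1 fell. Dlx6, a homeobox gene of limb and bone, was at 88, 62, 71 and 65 and then at 199, 205, 179 and 180, a log2 change of 1.41 ± 0.15 with an adjusted p of 5.27e-06. Sp8, a factor of the limb bud ridge, rose by 0.59, a call lost for 5 of 8 libraries left out with adjusted p up to 0.112. En1, a ventral limb factor, was at 632, 727, 622 and 679 and then at 331, 437, 409 and 474, a log2 change of -0.70 ± 0.20, which does not overlap. The call of En1 was lost for 2 of 8 libraries left out, replicate 2 of 12 days and replicate 1 of 14 days, with an adjusted p up to 0.0665. Lhx9 and Twist2, a LIM homeobox and a helix-loop-helix factor of limb mesenchyme, fell by 0.63 and 1.07. Msx1, a blastema marker, had a log2 change of 0.31 with an adjusted p of 0.406. Distally 16 of the 23 rose and none fell, where 11.2% of all genes rose and 8.12% fell. The test between levels called 12 lower and 1 higher proximally, against 6.61% and 5.08% of all genes.

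Cell cycle genes gave few calls. Of 22 DNA replication genes 3 rose, where 7.35% of all genes did, and none fell. Without both replicate 3 libraries 1 rose. Mcm7 and Mcm3, subunits of the replicative helicase, rose by 0.39 and 0.43, and Pole, the leading-strand polymerase, by 0.40. Mcm7 was at 486, 516, 478 and 544 and then at 650, 645, 705 and 654, with no overlap, and without both replicate 3 libraries its adjusted p was 0.0791. Mcm3 lost its call for 6 of 8 libraries left out, with adjusted p up to 0.108, and Mcm3 and Pole were not called under table totals, with 0.0707 and 0.0525. No mitosis gene of 23 was called (median -0.10). Mki67, the proliferation antigen, was at 3973, 4091, 3204 and 4221 and then at 5122, 4898, 4161 and 4567, with an adjusted p of 0.171. Distally 9 mitosis genes fell and none rose, where 8.12% of all genes fell, and Mki67 fell by 0.39. The level difference of Mki67 was 0.67 ± 0.19 with an adjusted p of 0.0236, the only mitosis gene called by that test. It called 6 of the 22 DNA replication genes with the higher change proximally and none with the lower, against 5.08% of all genes higher.

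Of 21 stress and immediate early genes 5 rose and 3 fell, where 7.35% and 7.84% of all genes did. Without replicate 1 of 12 days 3 rose and 2 fell, and the counts were the same without both replicate 3 libraries. Fosb, an AP-1 subunit, went from 105, 88, 140 and 148 to 764, 227, 358 and 464 (log2 change 1.80 ± 0.34), and Myc, a growth regulator, from 591, 591, 458 and 514 to 897, 713, 718 and 738. Egr3, an early growth response factor, went the other way, from 925, 825, 881 and 931 to 433, 380, 290 and 401, a log2 change of -1.26 ± 0.20. Ier3, a stress-induced survival gene, fell by 0.59 from 721, 818, 766 and 904 to 525, 520, 532 and 544. In all 4 genes the days did not overlap, and Myc lost its call without both replicate 3 libraries, with an adjusted p of 0.0697. Of 20 hypoxia and glycolysis genes 2 rose and none fell, a share of 10% near the 7.35% of all genes that rose. They were Slc2a1, the glucose transporter GLUT1, and Pdk1, which diverts pyruvate from mitochondria, with log2 changes of 0.57 and 0.52. Each lost its call for 3 of 8 libraries left out, with adjusted p up to 0.0618 for Slc2a1 and 0.0621 for Pdk1. Without both replicate 3 libraries neither was called (adjusted p 0.0697 and 0.074), and Pdk1 was not under table totals either (0.0684).

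Of 20 endothelial genes 6 were called higher and none lower, where 7.35% of all genes rose. The median was 0.40, and 19 of 20 had a positive change, against 47.8% of all genes. Pecam1, the junction protein CD31, was at 1233, 1414, 1593 and 1774 and then at 2294, 2643, 2736 and 1967, with no overlap and a log2 change of 0.68 ± 0.17. Cdh5, Flt1 and Tek, an endothelial cadherin, a VEGF receptor and the angiopoietin receptor, rose by 0.61, 0.64 and 0.73. Vwf, the von Willebrand factor, and Emcn, a capillary sialomucin, rose by 0.65 and 0.54. Without both replicate 3 libraries no endothelial gene was called, although the median stayed at 0.40, and without replicate 1 of 12 days 3 were. None of the 20 was called in distal digits, where 19.4% of all genes were and the median of the list was 0.38. None differed between levels, where 11.7% of all genes did. From 14 to 21 days, with the 14-day libraries shared, the median was -0.94.

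Leucocyte lists held few calls, where 7.35% of all genes rose and 7.84% fell. At those shares, no call in a list of 7 or 10 genes says little about it. Of 19 macrophage and monocyte genes 1 was called, the integrin gene Itgam with a log2 change of -0.76, and the median was -0.26. No gene of this list was called without replicate 1 of 12 days, nor without both replicate 3 libraries. The marker Adgre1, the F4/80 antigen, was at 128, 209, 245 and 282 and then at 138, 144, 151 and 188, with an adjusted p of 0.328. None of 7 neutrophil genes was called, and 11 of the 18 listed were not among the genes of the table, so this cell type rests on few markers. Of 18 chemokine and cytokine genes 1 rose and 1 fell, shares of 5.56% each that lie near those of all genes. Cxcl14, a chemokine of normal epithelium, was at 2479, 3567, 3395 and 3568 and then at 6907, 6061, 4961 and 5176, a log2 change of 0.83 ± 0.16. Il34, a ligand of the macrophage receptor CSF1R made by keratinocytes, fell by 1.09 from 303, 274, 383 and 237 to 139, 124, 152 and 139. None of 10 erythroid and marrow genes was called although their median was 1.17; their summed value ranged from 1749 to 16427 at 12 days and from 2314 to 10709 at 14 days. None of 22 interferon and antigen presentation genes, 26 ribosomal protein genes or 9 mitochondrial transcripts was called.

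Of 18 listed adipocyte genes 11 were measured, with 2 called higher, 2 lower and 7 not called, where 7.35% and 7.84% of all genes rose and fell. The markers Adipoq, Plin1, Lep and Pparg were not among the genes of the table, so this cell type rests on less specific members. Pck1, the gluconeogenic and glyceroneogenic enzyme, rose from 97, 24, 22 and 20 to 1032, 324, 234 and 200, a log2 change of 3.43 ± 0.56 with an adjusted p of 0.000307, and replicate 1 was the highest library on both days. Its level difference was 3.07 ± 0.79 with an adjusted p of 0.0144, and distal values stayed between 27 and 74 on both days. Car3, a carbonic anhydrase of fat and muscle, rose by 2.66 from 60, 28, 34 and 70 to 359, 338, 259 and 220. Acsl1, an acyl-CoA synthetase, fell by 0.57 and Lipe, hormone-sensitive lipase, by 0.59, the latter not called for 7 of 8 libraries left out, with adjusted p up to 0.0943. Of 20 sterol and fatty acid synthesis genes 3 fell and none rose, where 7.84% and 7.35% of all genes did. Dhcr7, Hmgcs1 and Srebf1, enzymes and a master regulator of lipid synthesis, fell by 0.82, 0.53 and 0.42. Aqp5, the water channel of sweat glands, was at 1935, 1120, 2647 and 1711 and then at 508, 398, 1208 and 375, a log2 change of -1.68 with groups that overlapped. Replicate 3 was the highest library on both days for Aqp5, and its call ended without replicate 3 of 12 days or replicate 4 of 14 days, with adjusted p of 0.0515 and 0.0563.

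The 12 largest falls named by the rule on size did not belong to 1 list, and all but Kcnj12 were called lower in distal digits as well. Wfdc17, a whey acidic protein family inhibitor, was at 1092, 796, 1153 and 943 and then at 231, 153, 241 and 115, a log2 change of -2.47 ± 0.42. Cyp4a29, a fatty acid hydroxylase family member, went from 197, 114, 76 and 217 to 25, 15, 36 and 24 (log2 change -2.49). Stard4, a cholesterol transfer protein, went from 1964, 1648, 2141 and 2682 to 587, 618, 873 and 532, a log2 change of -1.69 ± 0.22 with an adjusted p of 4.15e-05. F3, tissue factor, fell by 1.67 from 1091, 645, 1164 and 743 to 331, 237, 415 and 179. No 14-day value of these genes reached the lowest 12-day value. Akr1d1, a steroid reductase, Sec14l4, a lipid-binding protein, Serpinb6c, a serpin, and Kcnj12, a potassium channel, had log2 changes of -2.08, -1.91, -2.25 and -1.84. The remaining members were 4930438A08Rik and Gm94, uncharacterised genes, with -2.22 and -1.74, Hrnr, and Oas1f, an oligoadenylate synthetase family gene, with -2.34. Oas1f lost its call for 4 of 8 libraries left out, with adjusted p up to 0.0841.

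Over all genes, 1760 (11.7%) had a change between 12 and 14 days that differed between levels, 765 with the higher and 995 with the lower change proximally. Distally 2915 genes were called (19.4%), and no library is shared with the proximal comparison. Genes called higher at both levels numbered 150, which is 13.6% of the proximal and 8.86% of the distal rises. Genes called lower at both numbered 408, which is 34.5% of the proximal and 33.4% of the distal falls. A further 73 genes rose proximally and fell distally and 65 did the reverse. Of the proximal rises 481 (43.5%) and of the falls 205 (17.4%) differed between levels by the test.

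**Figure D5:**
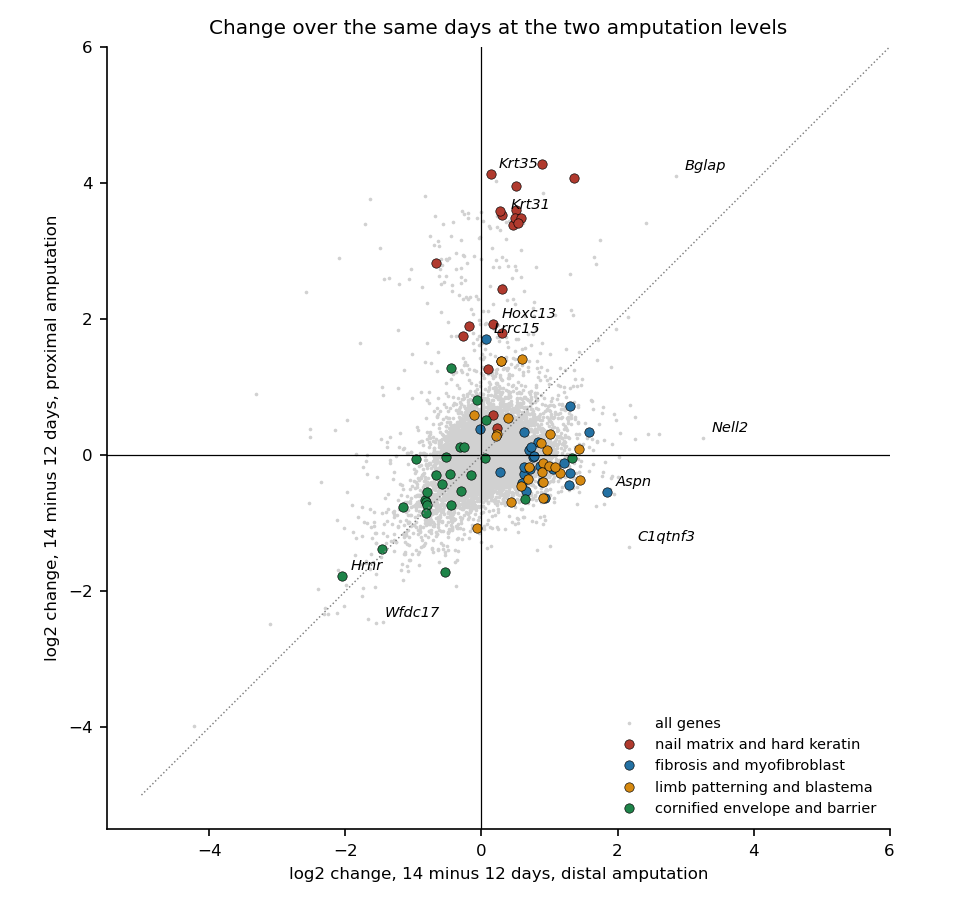
Log2 change between 14 and 12 days after proximal amputation (vertical) against that after distal amputation (horizontal). Each point is a gene, colours mark 4 lists, the dotted line is equality, and most nail genes lie high near a distal change of 0, most fibrosis and limb genes to the right near a proximal change of 0, and many cornified genes below 0 on both axes.

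The largest level differences downward were those of C1qtnf3, Nell2, Lrrc17 and Aspn. C1qtnf3, a secreted protein of cartilage and fibroblasts, was at 2105, 2089, 2264 and 2541 and then at 923, 1024, 972 and 650 proximally, while distally it lay between 87 and 255 and then between 638 and 928. Its level difference was -3.52 ± 0.46 with an adjusted p of 7.04e-05. Nell2, a secreted neural and matrix factor, was low proximally at 17, 49, 61 and 60 and then at 36, 33, 101 and 52, and differed by -3.01, chiefly by its distal rise of 3.26. Aspn, asporin, and Lrrc17, a leucine-rich repeat protein of bone and ligament, differed by -2.40 and -2.43. Proximally Aspn stood at 8167, 7841, 7181 and 9959 and then at 6594, 6111, 5504 and 4534, and it rose distally by 1.85. The largest upward were Krtap26-1, Gm11564 and Gm6358, a keratin-associated protein gene and 2 uncharacterised gene models, and Krtap17-1, with 5.12, 4.98, 4.52 and 4.64. For Gm11564 the proximal values were 6, 3, 3 and 0 and then 5, 4, 24 and 115, and the proximal change was not called.

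The proximal digits at 21 days were set against the same 14-day libraries. Of the 1107 genes that rose, 341 were then lower and 21 higher at 21 than at 14 days, and of the 1181 that fell, 577 were then higher and 72 lower. These counts use the 14-day libraries in both comparisons, so opposite signs are favoured by construction and nothing is read from the split. For single genes, Dmp1 lay between 41 and 106 at 21 days, Phex between 41 and 117, Bglap between 71 and 464, Wfdc17 between 398 and 1461, and Hrnr between 39587 and 46912.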

How the data were processed

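Total RNA depleted of ribosomal RNA was sequenced from 24 libraries, 4 for each of 2 amputation levels at 12, 14 and 21 days, per the labels. The submitters' processing notes name cutadapt, STAR 2.5.4b, Subread, featureCounts 1.6.3 and the mm10 build, with no settings. The deposited table of the authors holds whole numbers per gene, which are treated here as a score: their upper quartiles are nearly equal, and 1 weighted combination of the 24 libraries' log values varies over 9650 genes above 100 by 6.72 times less than counting noise would give. No count model was used, the depth is unknown, and p-values may be too small.

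Values entered limma 3.58.1 (R 4.3.3) as log2(value + 1), with 6 group means over 24 libraries, a mean-variance trend and Benjamini-Hochberg adjustment over 15055 genes, called under 0.05. The test was tried on simulated data with 200 changed genes, where 6.17% of calls were false. Noise there was normal and independent between libraries, which leaves out any pattern shared by libraries such as both replicate 3. Contrasts were 14 against 12 days at each level, their difference (the level difference) and 21 against 14 days. Alternatives changed the scaling, pseudocount, filter, weights, groups, block and libraries.

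Genes were named by a rule: the 12 largest rises and falls among called genes with a mean of at least 100 in the higher group and no overlap, up to 4 called members of each list with 2 or more, each list's extremes, a short panel, the 4 largest level differences each way, and the genes that set replicate 1 of 12 days apart. Other list members are examples. There were 41 lists of 788 genes, 668 measured, and 6 lists added after values were seen. The members and all lists were chosen with earlier results of these data known. Gene positions are from GENCODE vM21 and promoters from RefSeq (GRCm38.p6).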

Additional observations from a re-analysis of the deposited data

Results flagged for a closer look

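A value was singled out where 1 library stood far from the other 3 of its group, by a gap above Dixon's critical value for 4 samples. This held for 17 of 224 groups examined, with the gap taken on the deposited values and not on the log scale. Chance gives about 1 in 20 only for normally distributed values, so the count is a description. Replicate 1 of 12 days was high for the nail genes Gprc5d (225 against 24 to 49), Krt33a (905 against 78 to 167), Krtap22-2 (2913 against 754 to 784) and Krtap21-1 (6354 against 1617 to 2230), and for the antisense transcript Gm11571 (62 against 5 to 7). The same library was high for Pck1, an enzyme of glucose and glyceride synthesis (97 against 20 to 24), and low for the chemokine Cxcl14 (2479 against 3395 to 3568). Replicate 4 of 12 days was high for the bone genes Bglap2 (20 against 3) and Phex (81 against 33 to 39) and for the keratin Krt10 (252090 against 157306 to 164215), and low for follistatin, Fst (652 against 697 to 706).

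At 14 days replicate 3 was high for the helicase subunit Mcm7 (705 against 645 to 654), the endothelial cadherin Cdh5 (985 against 815 to 832) and the water channel Aqp5 (1208 against 375 to 508). Replicate 1 of 14 days was high for Myc (897 against 713 to 738) and Pck1 (1032 against 200 to 324), and replicate 4 was low for the lipase Lipe (208 against 233 to 236).

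The change from 12 to 14 days differed between proximal and distal digits for 1760 genes, by limma's test of the difference itself. Among the named genes the proximal change was the higher one for the hard keratin genes Krt35 (log2 difference 3.99) and Krt33b (3.10), for Gprc5d (3.40), and for the transcripts Gm12347 (3.81) and Gm11571 (2.95). It was the higher one too for the keratin-associated protein genes Krtap17-1 (4.64), Krtap1-3 (3.32), Krtap19-9b (3.88), Krtap22-2 (3.59), Krtap21-1 (3.76) and Krtap26-1 (5.12), and for the gene models Gm11564 (4.98) and Gm6358 (4.52). The proliferation antigen Mki67 had a difference of 0.67. Proximal changes were the lower ones for C1qtnf3 (-3.52), Nell2 (-3.01), Lrrc17 (-2.43), Aspn (-2.40) and Postn (-1.70).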

How the results depend on the processing

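Under the alternatives other than leaving out libraries, which kept all 8, the number of genes called between 14 and 12 days after proximal amputation lay between 1667, with the compared groups alone in the fit, and 2296, with a pseudocount of 8, against 2288. Leaving out each library in turn gave 1649 (without replicate 1 of 12 days) to 2180 (without replicate 2 of 14 days). Leaving out both replicate 3 libraries, an alternative chosen after seeing the data, gave 1287 calls, of which 1263 were among the 2288; fewer libraries entered that fit. Scaling to table totals gave 613 higher and 1586 lower calls, of which 1793 were among the 2288. For the level difference the count was 1760, and 1320 under table totals (432 higher and 888 lower), 1286 without both replicate 3 libraries, and 1389 to 1776 with each library left out. Of 98 called named genes, 64 were called under every alternative run. The sign of the log2 change turned for 2 named genes that were not called. Tnmd had 0.21, ranging from -0.024 (without replicate 4 of 12 days) to 0.51 with a library left out. Nell2 had 0.25, ranging from -0.17 (without replicate 1 of 12 days) to 0.45, and -0.08 without replicate 3 of 14 days; the cause was not tested. With the replicate number as a block, 2251 genes were called (2114 of them among the 2288) and 1654 for the level difference. The correlations of same-numbered libraries in their deviations from the day means were 0.12, 0.28, 0.70 and -0.0009, and not every library correlated best with its own number, so the numbers were not taken to pair the samples. Among the named genes Krt16 (adjusted p 0.0637) and Tgfbr2 (0.0507) were not called under the block. Depth is unknown, so what low values such as those of Sost, Bglap2 or Gm11564 can resolve is unknown too.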

Other observations

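The following groups were put together after their values were seen, so their counts are a description without a test of the group. Of 13 genes of glutathione synthesis and other targets of the transcription factor NRF2, 8 rose and none fell, where 7.35% and 7.84% of all genes did. The median log2 change was 0.57 against -0.05 distally. Gclc, the catalytic subunit of the rate-limiting enzyme of glutathione synthesis, was at 1031, 1032, 1083 and 1095 and then at 2472, 2487, 2603 and 2503. The spread within each day was small beside the step between them, with a log2 change of 1.25 ± 0.07 and an adjusted p of 7.49e-10. Distal values of Gclc lay between 1725 and 1758 at 12 days and between 1767 and 2248 at 14 days, and its level difference was 1.03 ± 0.10. Slc7a11, the cystine importer, rose from 963, 876, 813 and 898 to 2415, 4718, 2933 and 5746, and Nqo1, a quinone reductase, rose by 0.76. Txnrd1, thioredoxin reductase, and Hmox1, heme oxygenase, were not called, with log2 changes of -0.02 and -0.09.

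Of 9 HoxC cluster genes 6 fell and only Hoxc13 rose, where 7.84% and 7.35% of all genes did. Without both replicate 3 libraries 4 HoxC genes fell. Hoxc9 was at 118, 130, 118 and 123 and then at 43, 53, 42 and 45, a log2 change of -1.40 ± 0.16, and Hoxc8, Hoxc6 and Hoxc10 had changes of -1.22, -1.15 and -0.96. Hoxc12, the neighbour of Hoxc13, had a log2 change of -0.08 with an adjusted p of 0.809. Meis1, a Hox cofactor, fell by 1.17, from 938, 828, 747 and 847 to 353, 403, 435 and 308. Of 16 circadian genes 3 rose and 6 fell, where 7.35% and 7.84% of all genes did. Without replicate 1 of 12 days 1 rose and 5 fell, and without both replicate 3 libraries 1 rose and 4 fell. With only 1 rise left in each of those fits, at least 1 of the risers Npas2 and Nfil3 lost its call there. Dbp, Per3 and Tef, which are high in the same phase of the day, had log2 changes of -1.11, -0.74 and -0.65. Npas2 and Nfil3, which peak in the opposite phase, rose by 0.59 and 0.67. These members were picked from the list, in which 7 of 16 were not called, and do not stand for all of it. The labels do not state the time of day of collection, and its part in these values was not tested.

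Krt9, the keratin of footpad skin, was at 5572, 9242, 5970 and 13983 and then at 85, 150, 4203 and 1243, with no overlap, a log2 change of -3.99 ± 1.38 and an adjusted p of 0.0543. Replicate 3, the library high in secretory coil genes, held the highest 14-day value. The basement membrane collagens Col4a1 and Col4a2 rose by 0.61 and 0.60, and distally by 0.74 and 0.76. Tnfrsf13c, a receptor of B cells, rose from 50, 15, 14 and 13 to 102, 149, 172 and 145, with replicate 1 again the highest of 12 days and the lowest of 14 days.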
